A study of Callithrix jacchus with 54 samples.

Results

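Common marmoset cells cultured for 48 h as aggregates in BLSE + IWR1 were compared with cells cultured for 48 h in BLSE. The comparison holds 4 of the 54 RNA-seq libraries of the series, 2 per condition, taken by the condition, time and gate in their labels. All libraries were made from CMES40 marmoset embryonic stem cells (cjESCs) with BLIMP1-tdTomato and NANOS3-eGFP reporters (BTNG), and at 48 h all cells were taken on both sides, without a gate on the reporters. In BLSE the cells received BMP4, LIF, SCF, EGF and a Rock inhibitor. They came from cjESCs kept in DK20FA, had no pre-treatment and carried rtTA, tetO-BLIMP1, SOX17-GR and DD-TFAP2C, whose inducers were left out (the labels print a running number in place of the 2 of TFAP2C). In BLSE + IWR1 the cells received the same factors and IWR1. They came from BTNG cjESCs without these transgenes, kept in PESFA and pre-treated for 1 day with IM12, a WNT agonist, and activin A. IWR1, the line, the maintenance medium and the pre-treatment therefore differ together and cannot be told apart at 48 h.

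WNT ligands bind Frizzled receptors and LRP co-receptors, which keeps β-catenin from being degraded by a complex built on AXIN, and β-catenin then acts with TCF and LEF factors on target genes. IWR1 inhibits tankyrases, enzymes that mark AXIN for degradation, so that the complex is stabilised. Primordial germ cells (PGCs) are specified in response to BMP4 from cells that have been exposed to WNT, while prolonged WNT activity drives mesoderm and switches on posterior HOX genes. FOXJ1 is the master regulator of motile cilia, FGF8 a signalling ligand of the primitive streak and organizer, and HOXA10 and HOXA11 are posterior HOX genes.

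Levels were taken as log2(TPM + 1), on which changes of low genes come out too small, and 11197 genes reached 1.5 on this scale in 1 library or more. TPM scale transcript abundance to a constant total and keep no read totals, so depth is unknown and only the spread between libraries measures the error. One limma model over the 54 libraries gave log2 differences with their standard errors (SE) and Benjamini-Hochberg adjusted p. A differentially expressed gene (DEG) differed more than 4-fold at an adjusted p under 0.01, with a mean log2 level of the groups above 1.5. Of the genes tested, 116 (1.04%) were DEGs higher in BLSE + IWR1 and 151 (1.35%) were DEGs lower, and the median difference over all genes was 0.027 on the log2 scale. At an adjusted p under 0.01 alone, 1255 genes (11.2%) were higher and 1122 (10%) lower. At an unadjusted p under 0.05 there were 2468 (22%) higher and 2163 (19.3%) lower.

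The BLSE + IWR1 pair at 48 h stood apart from the other replicate pairs. Its libraries differed more than 2-fold in 935 genes, the most of the 27 pairs, of which 859 were higher in library 2 and 76 in library 1, against 180 genes between the BLSE libraries. The correlation across genes, which are not independent replicates, was 0.981 in that pair and 0.991 in BLSE. Without BLSE + IWR1 library 1 there were 207 DEGs higher and 142 lower (59.31% higher), and without library 2 there were 77 higher and 198 lower (28.00% higher). Leaving out BLSE library 1 gave 126 and 171, and leaving out BLSE library 2 gave 106 and 129. Called without each of the 4 libraries were 59 of the 116 higher DEGs and 106 of the 151 lower DEGs, and 46 of the 66 DEGs that belong to a gene list described here.

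**Figure D1:**
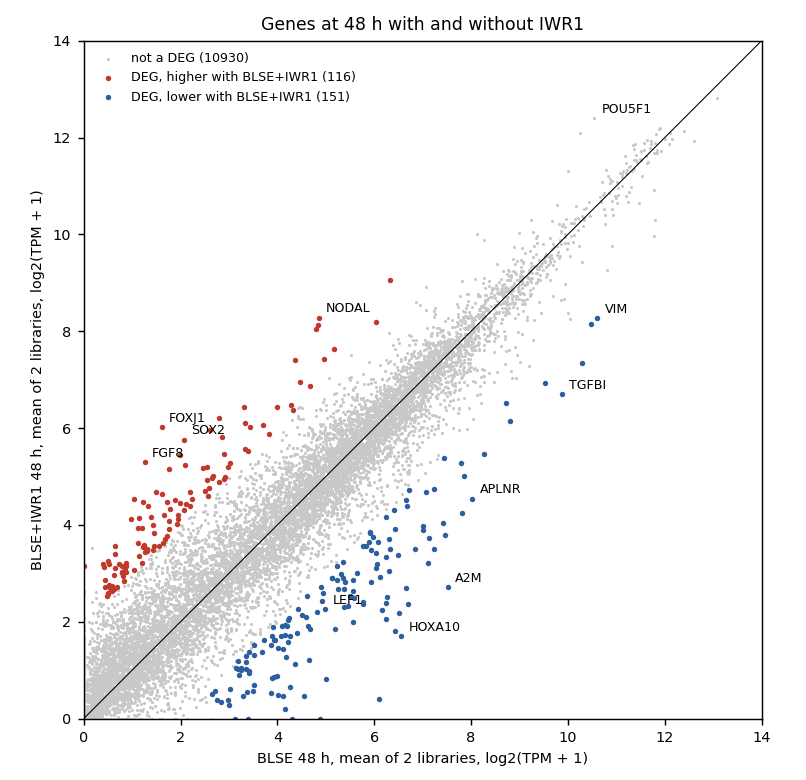
Each point is 1 of the 11197 genes, at its mean log2(TPM + 1) in the 2 BLSE libraries (x axis) and in the 2 BLSE + IWR1 libraries (y axis) at 48 h. Red points mark the 116 DEGs higher with BLSE + IWR1, led by FOXJ1 and FGF8, and blue points the 151 DEGs lower, with HOXA10 and A2M among the farthest from the diagonal.

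FOXJ1 (gene 100405481) had the largest difference among the DEGs higher in BLSE + IWR1. In both conditions FOXJ1 was below its level in the starting cjESCs, and it was lower in BLSE. It stood at 59.6 and 68.3 TPM in the libraries of BLSE + IWR1 and at 2.65 and 1.55 TPM in those of BLSE. The log2 difference was 4.41 ± 0.45 (SE, adjusted p = 1.37e-09). FGF8 (gene 118146090) followed, with 40.0 and 36.5 TPM against 0.92 and 1.98 TPM, a log2 difference of 4.03 ± 0.48 (adjusted p = 3.82e-08). Both genes were at a few TPM or less in BLSE.

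HOXA10 (gene 100396925) lay on the other side. BLSE + IWR1 held 2.36 and 2.15 TPM and BLSE 85.0 and 101.9 TPM, a log2 difference of −4.85 ± 0.24 (adjusted p = 2.93e-17). HOXA11 (gene 100398017) was at 2.92 and 2.15 TPM against 79.9 and 90.6 TPM, with −4.61 ± 0.27 (adjusted p = 1.46e-15). Both were thus strongly expressed in BLSE and close to the levels of the starting cjESCs in BLSE + IWR1. All 4 marker genes were DEGs without each of the 4 libraries in turn.

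Several pluripotency genes were higher in BLSE + IWR1. Of 16 genes tested, 3 were DEGs, all higher, 9 were higher at an adjusted p under 0.01, and the median difference was 1.51. SOX2 (gene 100407856), a factor of pluripotent and neural cells, was at 41.4 and 68.4 TPM in BLSE + IWR1 and at 2.44 and 4.08 TPM in BLSE, a difference of 3.70 ± 0.28 (adjusted p = 1.97e-12). NANOG (gene 100399586) was at 242 and 286 TPM against 31.5 and 22.6 TPM, with 3.26 ± 0.17 (adjusted p = 1.11e-16). Levels of the conditions lay well apart for both, and BLSE + IWR1 library 2 was the higher one in each pair. POU5F1 (gene 100384946) was at 5033 and 5779 TPM against 1608 and 1376 TPM. Its difference of 1.86 ± 0.10 (adjusted p = 8.40e-17) was far larger than its error and short of 4-fold. PRDM14 (gene 100411718), which PGCs share with pluripotent cells, sat on the threshold. Its 7.53 and 17.0 TPM against 2.15 and 2.04 TPM gave 2.0 ± 0.24 (adjusted p = 3.52e-08), and without BLSE + IWR1 library 2 it was 1.46 and without BLSE library 2 it was 1.98, both below 4-fold. Outside these, TDGF1, the co-receptor of NODAL, differed by 1.74 and DPPA5 by 1.66, each at an adjusted p under 0.01. SALL4 was the member lower at that p, with −0.84 ± 0.13 (adjusted p = 6.47e-06).

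The list of PGC specification genes was mixed. Of 12 tested, 3 were DEGs, all higher in BLSE + IWR1, with a median of 0.52. UTF1 (gene 100392482), a chromatin factor of pluripotent and germ cells, was at 66.7 and 55.8 TPM against 4.83 and 5.31 TPM in BLSE, a difference of 3.35 ± 0.19 (adjusted p = 3.73e-16). PIM2 (a kinase) differed by 2.65, and PDPN, a surface glycoprotein of PGCs, by 2.16, or by 1.89 and below 4-fold without BLSE + IWR1 library 2. NANOS3 (gene 100405226), an RNA-binding protein that protects PGCs, had 15.8 and 10.2 TPM against 3.82 and 3.44 TPM. The difference was 1.57 ± 0.29 (adjusted p = 7.28e-05), below 4-fold.

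The core PGC factors did not share that direction. SOX17 (gene 100396115) had 25.3 and 15.9 TPM in BLSE + IWR1 and 57.6 and 57.1 TPM in BLSE, a difference of −1.47 ± 0.29 (adjusted p = 1.29e-04). TFAP2C (gene 100400638) had 136.7 and 150.0 TPM against 250 and 255 TPM, with −0.81 ± 0.18 (adjusted p = 6.93e-04). The DK20FA cjESCs, which carry the transgenes, also had more SOX17 (27.6 and 36.2 TPM) and TFAP2C (174 and 182 TPM) than the PESFA cjESCs (7.22 and 7.49, and 107 and 96.0 TPM). A part of transgene reads in these values was not tested. PRDM1 (gene 100401970, BLIMP1) had 8.74 and 13.3 TPM against 19.15 and 13.99 TPM, with −0.56 ± 0.21 (adjusted p = 0.0403). KIT, the receptor of SCF, was at 0.36 TPM or less in all 4 libraries.

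**Figure D2:**
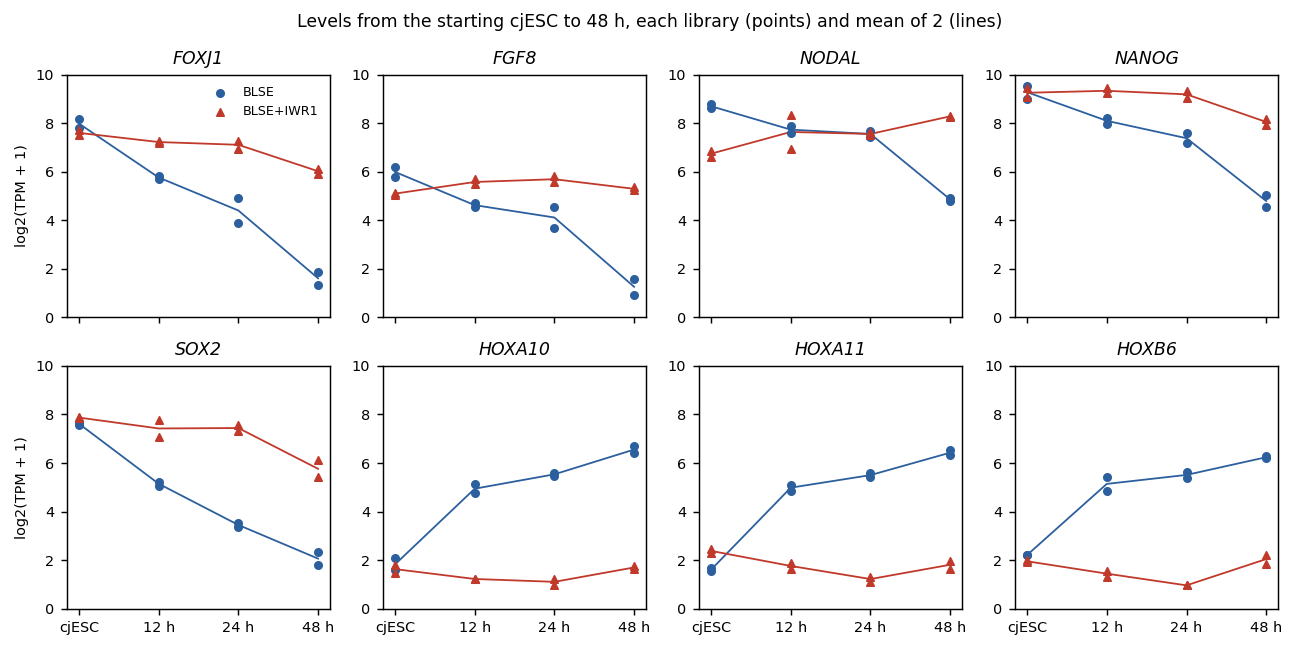
Levels of 8 genes as log2(TPM + 1) in the starting cjESCs and at 12, 24 and 48 h, evenly spaced on the x axis. The starting cjESCs are DK20FA for BLSE and PESFA, before the pre-treatment, for BLSE + IWR1. Points show libraries and lines run through the means of 2. FOXJ1, FGF8, NODAL, NANOG and SOX2 drop in BLSE by 48 h and lie higher in BLSE + IWR1, while HOXA10, HOXA11 and HOXB6 climb in BLSE and stay low in BLSE + IWR1.

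Some genes of NODAL signalling and the primitive streak were higher in BLSE + IWR1 at 48 h. Of 12 tested, 2 were DEGs higher and 1 lower, 5 were higher at an adjusted p under 0.01, and the median was 1.21. The lower count was 0 without BLSE + IWR1 library 1 or BLSE library 2. NODAL (gene 100406643), the ligand that patterns the streak, was at 313 and 307 TPM in BLSE + IWR1 and at 26.8 and 29.3 TPM in BLSE, a difference of 3.42 ± 0.40 (adjusted p = 2.49e-08). EOMES (gene 100401577), a T-box factor downstream of NODAL, had 25.6 and 34.3 TPM against 4.28 and 5.37 TPM, with 2.40 ± 0.54 (adjusted p = 7.25e-04). Its adjusted p was 0.0124 without BLSE + IWR1 library 2 and 0.0122 without BLSE library 1, so that it was then no DEG. TBXT (gene 100384957), the streak and notochord factor Brachyury, had 149 and 220 TPM against 48.0 and 42.4 TPM, and 1.98 ± 0.36 (adjusted p = 3.95e-05) was just below 4-fold. FOXH1, a partner of NODAL's SMADs, differed by 1.58 ± 0.18 (adjusted p = 1.15e-08).

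A share of the motile cilia genes was also higher in BLSE + IWR1. Of 78 tested, 71 had a difference above 0, 27 were higher at an adjusted p under 0.01, 9 were DEGs and none was lower at that p, and the median was 0.69. The summed level of the list was 2213 and 2182 TPM in BLSE + IWR1 and 1534 and 1477 TPM in BLSE. Besides FOXJ1, the DEGs were TPPP3 (3.17), DNALI1 (3.15), TEKT2 (2.93), CFAP126 (2.7), AKAP14 (2.65), CFAP44 (2.17), NME5 (2.0) and CAPSL. DNALI1, a light chain of axonemal dynein, had 12.0 and 22.4 TPM against 1.16 and 0.78 TPM, and TEKT2, a filament protein of the axoneme, 8.38 and 14.1 against 0.25 and 0.94 TPM. CAPSL had 6.43 and 9.52 TPM and was listed at 0 in both BLSE libraries, so no fold is given. These levels are low, and 4 of the 9 lost the call without a library: CAPSL and CFAP44 (1.97) without BLSE + IWR1 library 2, CFAP126 (adjusted p = 0.0138) without BLSE library 2, and NME5 without BLSE + IWR1 library 1 (1.84) or BLSE library 1 (1.72). GMNC and MCIDAS, which start the multiciliated programme upstream of FOXJ1, did not pass the filter on low values.

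The node and notochord list, which shares FOXJ1 and NODAL with the lists above, held 12 genes, of which those 2 were its DEGs. Of the 12, 10 had a difference above 0, and the median was 1.21. At an adjusted p under 0.01, 5 were higher and 0 lower. CHRD, a BMP antagonist of the organizer, differed by 1.6 ± 0.32 (adjusted p = 1.78e-04). FOXA2, which marks the floor plate, notochord and endoderm, had 1.83 and 4.16 TPM against 0 and 1.02 TPM, and SHH and NOG had differences of −0.34 and −0.66. Leaving out BLSE + IWR1 library 1 gave this list 4 DEGs.

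Among the 11 FGF ligands tested, FGF8 was the DEG, and FGF13 and FGF2 were higher at an adjusted p under 0.01, by 1.41 ± 0.23 and 1.19 ± 0.25. The FGF receptors and ERK feedback genes held no DEG in limma among 20, with a median of −0.03. There were 3 higher and 5 lower at an unadjusted p under 0.05, against 22% and 19.3% of all genes tested. FGFR1 differed by 0.61 ± 0.26 (adjusted p = 0.0743). ETV5 (−1.53), SPRED1 (−1.10) and SPRED2 (−1.04) were lower at an adjusted p under 0.01.

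Of 28 neural and anterior genes, 3 were DEGs, all higher, 21 had a difference above 0, and the median was 0.45. At an adjusted p under 0.01, 9 were higher and 1 lower, against 11.2% and 10% of all genes tested. Beside SOX2 the DEGs were ZIC2 and ZIC5, zinc finger factors of the neural plate and of primed pluripotent cells. ZIC2 (gene 100412407) had 32.6 and 56.0 TPM against 3.62 and 2.43 TPM, with 3.46 ± 0.60 (adjusted p = 2.57e-05), and ZIC5 had 3.70 and 6.48 TPM against 0.24 and 0.60 TPM. ZIC5 lost its call without BLSE + IWR1 library 2 or without either BLSE library, at differences of 1.74 to 2.26. Some factors that mark committed neural tissue were near or at 0: NEUROG1 and EN2 were listed at 0 in all 4 libraries, and SOX1, OLIG2 and RAX did not pass the filter. The list had 5 DEGs without BLSE + IWR1 library 1.

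The WNT pathway did not move as a block. Of 23 WNT ligands and secreted regulators, 2 were DEGs higher and 3 lower, with a median of 0.12. WNT8A (gene 100402422), a ligand of the early streak, was at 263 and 298 TPM in BLSE + IWR1 and at 28.3 and 26.9 TPM in BLSE, a difference of 3.30 ± 0.41 (adjusted p = 6.29e-08). SFRP5, a secreted WNT antagonist, had 12.9 and 15.4 TPM against 2.23 and 2.53 TPM, with 2.16 ± 0.37. WNT3A, a ligand of the posterior streak and tailbud, had 10.2 and 6.98 TPM against 32.8 and 48.7 TPM, with −2.11 ± 0.32 (adjusted p = 3.10e-06). RSPO3, which strengthens WNT signals by removing RNF43 and ZNRF3, differed by −2.17, and DKK4, an antagonist induced by WNT, by −2.69. WNT3A was below 4-fold without BLSE + IWR1 library 2 (−1.87) or BLSE library 2 (−1.84), and RSPO3 without BLSE + IWR1 library 2 (−1.89). WNT3 had 51.5 and 73.7 TPM against 41.5 and 41.3 TPM, a difference of 0.56 ± 0.30 (adjusted p = 0.146).

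Among 20 receptors and members of the AXIN complex, the DEGs were 2 Frizzled receptors, both higher. FZD5 (gene 100410939) had 48.4 and 108.4 TPM against 5.53 and 6.34 TPM, with 3.41 ± 0.32 (adjusted p = 2.30e-10), and FZD10 had 84.0 and 88.0 TPM against 16.2 and 13.6 TPM, with 2.46 ± 0.34 (adjusted p = 4.35e-07). Of the 20, 4 were higher and 2 lower at an adjusted p under 0.01. Among the target of IWR1 and its partners, TNKS2, AXIN1, CTNNB1 and GSK3A did not pass the test at the RNA level. TNKS2, a tankyrase, differed by −0.40 ± 0.22 (adjusted p = 0.165), AXIN1 by 0.19 ± 0.16, CTNNB1 (β-catenin) by −0.26 ± 0.14 and GSK3A by 0.08 ± 0.12.

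Feedback and target genes of WNT split by gene. Of 25, 4 were DEGs, all lower in BLSE + IWR1, and the median was 0.07. At an adjusted p under 0.01, 5 were higher and 8 lower, against 11.2% and 10% of all genes tested. LEF1 (gene 100399759), a partner of β-catenin and itself a target, had 3.34 and 4.28 TPM against 25.7 and 37.0 TPM, with −2.73 ± 0.28 (adjusted p = 1.87e-09). CDX2 (gene 100412955), which activates posterior HOX genes, had 6.98 and 4.09 TPM against 38.3 and 42.3 TPM, with −2.69 ± 0.42 (adjusted p = 4.01e-06). RNF43, a feedback inhibitor that removes Frizzled receptors, had 12.4 and 14.4 TPM against 62.7 and 55.9 TPM, with −2.07 ± 0.27, or −1.97 without BLSE + IWR1 library 1 and −1.99 without BLSE library 1. DKK4, listed above, was the remaining one. In the best known feedback gene, AXIN2, no difference was detected: 5.32 and 8.15 TPM against 5.78 and 4.20 TPM gave 0.36 ± 0.30 (adjusted p = 0.391). SP5, another direct target, had 6.22 and 7.04 TPM against 11.7 and 8.69 TPM, with −0.54 ± 0.48 (adjusted p = 0.424). NOTUM, a secreted WNT inactivating enzyme, was higher by 1.80 ± 0.24 and CDX1 by 1.18 ± 0.31, both at an adjusted p under 0.01 and below 4-fold.

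HOX genes formed the largest block of lower genes. Of 26 tested, 15 were DEGs and all 15 were lower in BLSE + IWR1, with a median of −2.69, and 3 of 26 had a difference above 0. Among the DEGs were HOXA5, HOXA6, HOXA7, HOXA9, HOXA10, HOXA11 and HOXA13 of the HOXA cluster and, of the HOXB cluster, HOXB2, HOXB3, HOXB5, HOXB6, HOXB7 and HOXB8. HOXB6 (gene 100400389) had 3.70 and 2.63 TPM against 76.6 and 72.7 TPM, with −4.19 ± 0.29 (adjusted p = 1.67e-13). HOXA13 kept the highest level in BLSE + IWR1, 9.83 and 10.95 TPM against 78.4 and 80.3 TPM, with −2.82 ± 0.29. HOXA6 and HOXC11 were listed at 0 in both BLSE + IWR1 libraries, and in BLSE HOXA6 had 6.21 and 14.3 TPM and HOXC11 15.0 and 23.5 TPM. Of the HOXC cluster, HOXC11 was the DEG, and HOXC4, HOXC6, HOXC8, HOXC9 and HOXC10 were below 1 TPM in all 4 libraries. The summed HOX level was 37 and 32 TPM in BLSE + IWR1 and 555 and 596 TPM in BLSE. Leaving out BLSE library 2 took HOXA6 (mean level then too low) and HOXA7 (−1.99) out of the DEGs.

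**Figure D3:**
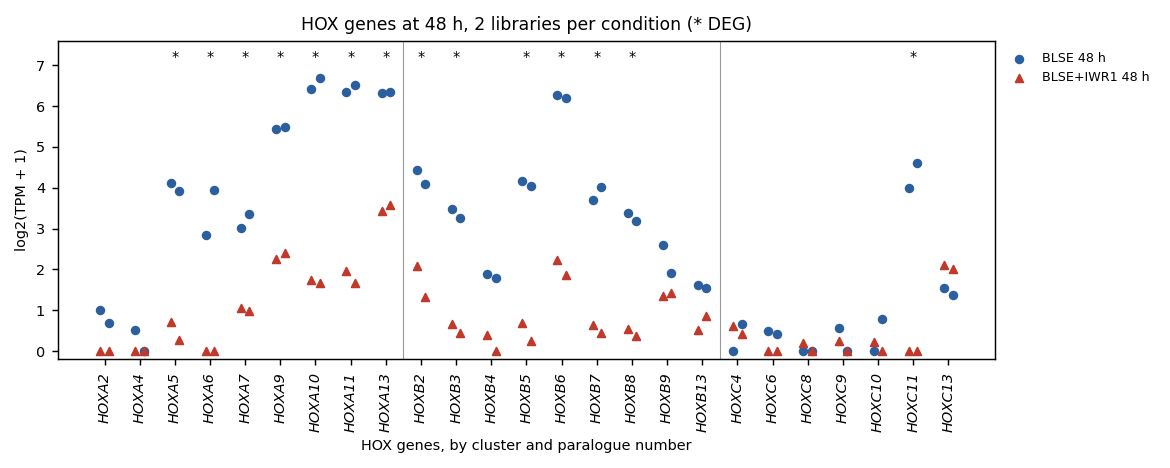
Levels of 25 HOX genes as log2(TPM + 1), ordered by cluster and paralogue number, with a point for each of the 4 libraries at 48 h and asterisks for DEGs. BLSE points lie above BLSE + IWR1 points across most of HOXA and HOXB, while HOXC genes other than HOXC11 are low in both.

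Mesoderm genes were split, with more lower than higher. Of 24 tested, 7 were DEGs lower and 1, EOMES, higher, with a median of −0.56. The list had 4 DEGs higher and 6 lower without BLSE + IWR1 library 1, and 0 and 6 without library 2. TBX4, a factor of the hindlimb and allantois, had 5.89 and 11.3 TPM against 132 and 144 TPM, with −3.91 ± 0.35 (adjusted p = 9.12e-11). PITX1, its partner in hindlimb identity, had 0.37 and 1.25 TPM against 26.4 and 36.2 TPM, with −4.18 ± 0.47. APLNR, the apelin receptor of early mesoderm, had 26.7 and 18.6 TPM against 262 and 256 TPM, with −3.48 ± 0.34, and FOXF1, a factor of extraembryonic and lateral plate mesoderm, 14.02 and 7.59 against 110 and 118 TPM, with −3.34 ± 0.32. TBX2 had 2.81 and 1.5 TPM against 12.1 and 16.6 TPM, with −2.29, or −1.99 without BLSE + IWR1 library 2. TCF21 was listed at 0 in both BLSE + IWR1 libraries and had 5.69 and 10.4 TPM in BLSE, and it was no DEG without BLSE library 2, where its mean level was too low. HAND1 (gene 100399939) was highly expressed on both sides, at 1176 and 1186 TPM against 1770 and 1729 TPM, a difference of −0.57 ± 0.32 (adjusted p = 0.176). TBX3, with 142 and 191 against 203 and 206 TPM, gave −0.31 ± 0.29.

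Genes of the epithelial-mesenchymal transition (EMT), a list that also holds epithelial genes, were split too, with more lower than higher. Of 14, 3 were DEGs, all lower, 6 had a difference above 0, and the median was −1.46. At an adjusted p under 0.01, 3 were higher and 8 lower. TGFBI, a matrix protein, had 92.0 and 115 TPM against 787 and 1116 TPM, with −3.18 ± 0.27 (adjusted p = 3.18e-11). VIM (gene 100408168), the mesenchymal intermediate filament, had 299 and 315 TPM against 1492 and 1633 TPM, with −2.34 ± 0.19 (adjusted p = 5.95e-12). TWIST1 differed by −2.37, or by −1.80 without BLSE + IWR1 library 1. SNAI2 (gene 100404347), a repressor of epithelial genes, had 10.8 and 8.15 TPM against 37.9 and 34.1 TPM, and its −1.83 ± 0.31 (adjusted p = 1.82e-05) was below 4-fold, as was SNAI1 at −1.36. Epithelial CDH1 was higher by 1.34 ± 0.19 and OCLN by 1.09 ± 0.21, both at an adjusted p under 0.01 and below 4-fold.

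Target genes of BMP held no DEG in limma among 18, with a median of 0.03. At an unadjusted p under 0.05 there were 5 higher and 4 lower, against 22% and 19.3% of all genes tested. At an adjusted p under 0.01 there were 5 and 1. ID1 had 1190 and 926 TPM against 548 and 472 TPM, a difference of 1.04 ± 0.18, and ID3 0.20 ± 0.17. MSX2 and ID4 were higher by 0.78 and 1.24, and BMP4 itself was lower by 1.64 on the log2 scale (−1.64 ± 0.19, adjusted p = 1.52e-08). GATA2 (0.32), GATA3 (0.23) and TFAP2A (1.35), which amnion and trophoblast also express, were no DEGs. TFAP2A was higher below 4-fold (adjusted p = 2.46e-04 in limma), while the adjusted p was 0.506 for GATA2 and 0.572 for GATA3. Of the 15 amnion and trophoblast genes CDX2 was the DEG.

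Markers of other cells that aggregates could hold lay on both sides. In bulk RNA, fewer cells of a type and less RNA per cell cannot be told apart, here or for any list above. Of 18 fibroblast and stroma genes, 4 were DEGs, all lower in BLSE + IWR1 (OLFML2B, DCN, COL1A2 and ACTA2), with a median of −0.77 and summed levels of 217 and 285 TPM against 627 and 767 TPM. Among these, OGN was at 0 in all 4 libraries and COL1A1 was at 35.6 and 49.9 against 39.8 and 44.6 TPM. Without BLSE + IWR1 library 1 ACTA2 (−1.88), and without BLSE library 2 COL1A2 (−1.91), was below 4-fold. Of 13 endothelial genes, ANGPT2 (−3.42) and ESM1 (−2.64) were DEGs, while CDH5 and PECAM1 were below 10 TPM in all 4 libraries. Of 11 endoderm genes, APOA1 (−2.18) was the DEG, no longer so without BLSE + IWR1 library 1 (−1.61) or BLSE library 2 (−1.90), and AFP, APOA2 and TTR were at 0 in all 4 libraries. Higher at an adjusted p under 0.01 were 2 stroma genes, 3 endothelial genes and 2 endoderm genes, and lower at that p were 8, 6 and 3. PDGFRB, a growth factor receptor of mural and stromal cells, was at 12.6 and 22.5 TPM against 3.67 and 3.58 TPM (1.95), and THY1 differed by 1.94. KDR, a receptor of vascular growth factor, was at 51.8 and 100.8 TPM against 20.1 and 24.3 TPM (1.67), and FOXA3, an endoderm factor, at 29.1 and 32.7 TPM against 7.64 and 8.73 TPM (1.8). With BLSE + IWR1 library 1 left out, the stroma list had 2 DEGs higher and 3 lower and the endothelial list 1 and 2.

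Of 18 genes of retinoic acid metabolism and response, 1 was a DEG, lower in BLSE + IWR1, and the median was 0.09. RARB, a receptor induced by retinoic acid, was lower by 2.06 on the log2 scale (−2.06 ± 0.32, adjusted p = 3.75e-06) at a mean level too low for a DEG. CYP26A1, which degrades retinoic acid, differed by −1.51 and CRABP1 by 1.90, both at an adjusted p under 0.01. The synthesizing enzyme ALDH1A2 had 1.41 and 6.81 TPM against 0.32 and 0.13 TPM. This list had 2 DEGs higher and 1 lower without BLSE + IWR1 library 1.

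Of 21 cell cycle genes, CCND2 was a DEG higher (2.64) and CDKN2B, which inhibits its kinase partners, a DEG lower (−2.43), with a median of −0.03. Proliferation genes such as TOP2A (−0.01 ± 0.23), PCNA (−0.03 ± 0.15) and MCM7 (0.00 ± 0.08) showed no detectable difference. Of 25 glycolysis and hypoxia genes, ENO2, the neuronal enolase, was the DEG, with 26.2 and 45.6 TPM against 1.98 and 2.82 TPM. The rest of the list leaned the other way: 8 of 25 had a difference above 0, and the list median was −0.30. At an adjusted p under 0.01, 2 were higher and 6 lower. Of 14 stress and apoptosis genes none was a DEG in limma, with a median of 0.17. In this list 6 were higher and 3 lower at an unadjusted p under 0.05, against 22% and 19.3% of all genes tested. FOS, an immediate early gene, had 64.9 and 108.1 TPM against 15.4 and 27.3 TPM, with 1.98 ± 0.44, and FOSB differed by 2.15 ± 0.66 (adjusted p = 0.0117). Without BLSE + IWR1 library 1 the list had 2 DEGs, and without BLSE library 2 it had 1.

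**Figure D4:**
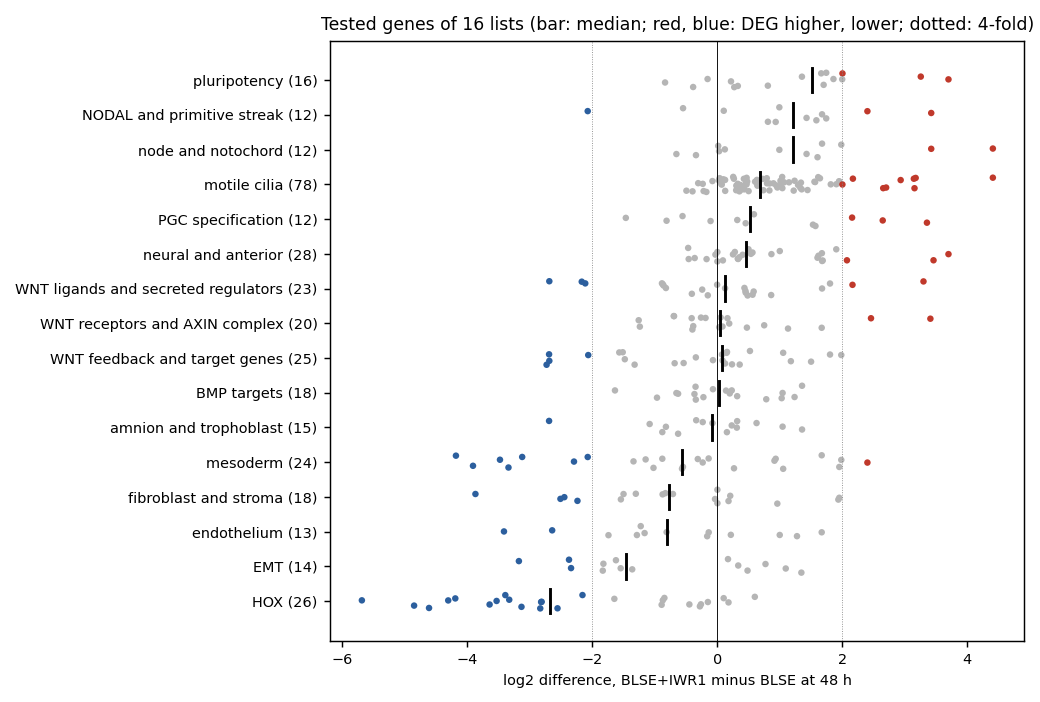
Each point is a tested gene of 1 of 16 lists, at its log2 difference between BLSE + IWR1 and BLSE at 48 h, with list sizes in brackets and black bars for medians. Medians run from 1.51 in pluripotency to −2.69 in HOX, against 0.027 over all genes, and coloured points are DEGs.

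Among the 10 DEGs furthest below BLSE, PLA2G2A, A2M, IL17RE and CIDEC lay outside these lists. PLA2G2A, a secreted phospholipase, was listed at 0 in both BLSE + IWR1 libraries and had 30.4 and 26.9 TPM in BLSE. A2M, a protease inhibitor, had 3.58 and 8.37 TPM against 147 and 225 TPM, a difference of −4.80. IL17RE, a cytokine receptor, had 3.98 and 4.26 TPM against 108.2 and 97.0 TPM, and CIDEC, a protein of lipid droplets, 5.65 and 2.08 against 90.1 and 89.0 TPM. CA11, a carbonic anhydrase-like protein, was among the 10 DEGs furthest above BLSE. It had 20.5 and 24.3 TPM against 1.41 and 0.75 TPM, a difference of 3.50.

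To place the 48 h difference, the conditions were compared at 12 and 24 h and in the cjESCs each came from, before any pre-treatment. BLSE + IWR1 against BLSE gave 38 DEGs higher (0.339%) and 137 lower (1.22%) at 12 h, and 74 higher (0.661%) and 139 lower (1.24%) at 24 h. PESFA against DK20FA cjESCs gave 162 higher (1.45%) and 66 lower (0.589%). These comparisons use libraries other than those at 48 h. Of the 151 DEGs lower at 48 h, 73 were also lower at 12 h (48.3% of the 151 and 53.3% of the 137 at 12 h), 94 at 24 h (62.3% and 67.6%) and 14 between the cjESCs (9.27% and 21.2%). Of the 116 DEGs higher at 48 h, 21 were shared with 12 h (18.1% and 55.3%), 40 with 24 h (34.5% and 54.1%) and 4 with the cjESCs (3.45% and 2.47%). Between the cjESCs, 19 of the 151 and 4 of the 116 were DEGs in the opposite direction. Over the genes lower at 48 h the median difference was 0.04 between the cjESCs, −2.05 at 12 h and −2.22 at 24 h, and over those higher it was 0.37, 1.39 and 1.74.

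The shift from the cjESCs, the 48 h difference minus the PESFA minus DK20FA difference, tested whether the 2 contrasts were unlike. These PESFA cjESCs had not been pre-treated, so an effect of the pre-treatment stays in the shift. Pre-treated cjESCs were sequenced as well, and their libraries are not part of this contrast. The shift also counts genes whose difference lay mainly between the cjESCs. It gave 135 genes (1.21%) higher and 287 (2.56%) lower by the same thresholds. The stroma list moves with the lower side of this result: its summed level was 4766 and 3309 TPM in PESFA cjESCs against 492 and 613 TPM in DK20FA cjESCs, with 9 of 18 members DEGs higher in PESFA, for example COL1A1 at 1598 and 878 against 41.8 and 83.6 TPM. These cjESCs had been sorted for TRA-1-60 to leave out mouse feeder cells, and 12 of the 18 members were lower in this shift. The part of such RNA in other genes was not tested. Without BLSE + IWR1 library 1 there were 200 higher and 244 lower, and without library 2 there were 106 and 335.

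Within it, HOXA10 differed by −4.66 ± 0.34 (adjusted p = 1.07e-12) and HOXA11 by −5.39 ± 0.38 (adjusted p = 5.58e-13). PESFA cjESCs had 2.46 and 1.78 TPM of HOXA10 and DK20FA cjESCs 1.99 and 3.20 TPM. FOXJ1 was at 206 and 180 TPM in PESFA against 289 and 219 TPM in DK20FA, and its shift at 48 h was 4.79 ± 0.64 (adjusted p = 3.76e-07). FGF8, NANOG and SOX2 likewise had no DEG between the cjESCs and a shift of 4.93, 3.28 and 3.44. Of the 78 cilia genes, 15 were higher in this test and none lower, and of the 26 HOX genes 14 were lower and none higher. Among them CFAP43, CFAP44, CFAP91, KIF9, SPAG8, SPEF1, HOXA9 and HOXB8 each lost the call without 1 or more of the 8 libraries. The lists also differed between the cjESCs, with a median of −0.39 for cilia and 1.34 for HOX, against −0.082 over all genes.

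A second set of genes changed sides. WNT8A was at 0.58 and 1.79 TPM in PESFA cjESCs and at 36.2 and 38.5 TPM in DK20FA cjESCs, a difference of −4.19 ± 0.41 (adjusted p = 5.00e-10), so that its shift at 48 h came to 7.49 ± 0.57 (adjusted p = 2.83e-12). TBXT was at 79.9 and 52.7 against 435 and 404 TPM, with −2.67 ± 0.36, and EOMES, FZD10 and CDX1 were DEGs lower in PESFA cjESCs and had higher levels in BLSE + IWR1 at 48 h. The shift was 4.65 for TBXT, 4.71 for EOMES, 5.72 for FZD10 and 3.46 for CDX1. NODAL differed by −1.96 ± 0.40 between the cjESCs and its shift was 5.38 ± 0.57. TBX4 went the other way, with 6.65 and 12.5 TPM in PESFA cjESCs against 1.0 and 1.89 TPM and a shift of −5.99 ± 0.50.

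**Figure D5:**
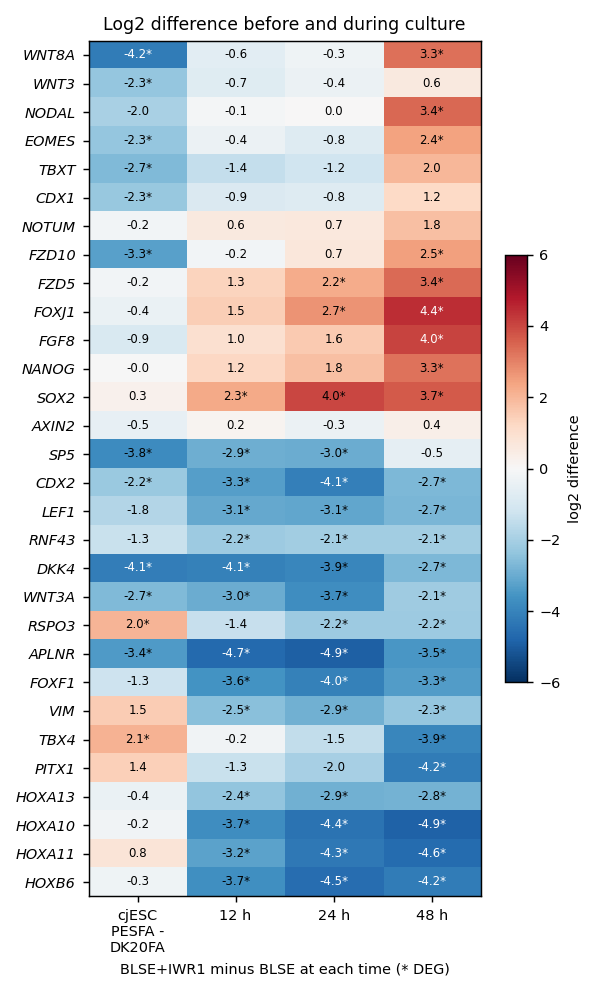
Log2 difference of 30 genes between the cjESCs (PESFA minus DK20FA) and between BLSE + IWR1 and BLSE at 12, 24 and 48 h, printed in each cell, with asterisks for DEGs. WNT8A, NODAL, EOMES, TBXT and FZD10 run from blue in the cjESCs to red at 48 h, LEF1, CDX2 and DKK4 stay blue throughout, and HOXA10, HOXA11 and HOXB6 turn blue at 12 h.

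From 12 to 48 h the difference itself changed for 27 genes (0.241%) upward and 11 (0.0982%) downward. NODAL had 326 and 120 TPM in BLSE + IWR1 and 231 and 193 TPM in BLSE at 12 h, and the difference grew by 3.52 ± 0.57 (adjusted p = 2.48e-04). WNT8A grew by 3.93 ± 0.57 and TBXT by 3.43 ± 0.50 (adjusted p = 7.75e-05 for each), and UTF1 by 2.38 ± 0.26. FOXJ1 grew by 2.95 ± 0.64 (adjusted p = 5.81e-03) and FGF8 by 3.08 ± 0.69 (adjusted p = 7.81e-03). Both lost the call when any 1 of the 8 libraries was left out, at adjusted p of 0.0103 to 0.0506 for FOXJ1 and 0.0145 to 0.0568 for FGF8. TBX4 (−3.68) and A2M (−2.92) moved downward, while the values of HOXA10 (−1.14), HOXA11 (−1.39) and LEF1 (0.36 ± 0.40) did not pass the test (adjusted p = 0.752 for the last). Without BLSE 48 h library 2 there were 25 such genes in place of 38.

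Changes within each condition say which side moved. Between 12 and 48 h BLSE gave 32 DEGs higher (0.286%) and 42 lower (0.375%), and BLSE + IWR1 gave 44 (0.393%) and 16 (0.143%). NODAL fell in BLSE by 2.87 (SE 0.40), FOXJ1 by 4.15, FGF8 by 3.36, NANOG by 3.30, SOX2 by 3.08 and TBXT by 2.89 on the log2 scale. In BLSE + IWR1 none of these 6 was a DEG in limma over that interval, with NODAL at 0.64 ± 0.40 and FGF8 at −0.28 ± 0.48, although SOX2 at −1.66 (adjusted p = 7.29e-05) and NANOG at −1.28 (adjusted p = 1.78e-06) were lower at 48 h at an adjusted p under 0.01. WNT8A was the reverse, with a rise of 3.16 ± 0.41 in BLSE + IWR1 and −0.77 ± 0.41 (adjusted p = 0.285) in BLSE. HAND1 rose in BLSE + IWR1 by 2.18 ± 0.32, from 305 and 221 TPM at 12 h, and APLNR by 2.06 ± 0.34. TBX4 rose in BLSE by 3.81 ± 0.35. LEF1 was higher at 48 h than at 12 h in both, by 1.45 ± 0.28 in BLSE + IWR1 and 1.09 ± 0.28 in BLSE, below 4-fold.

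The condition most like BLSE + IWR1 added BMS493, an inverse agonist of all retinoic acid receptors, to the same line, medium and pre-treatment. Both comparisons use the BLSE + IWR1 libraries at 48 h, so the values are set side by side. BLSE + IWR1 + BMS against BLSE + IWR1 gave 14 DEGs higher (0.125%) and 13 lower (0.116%). FOXJ1 was at 13.99 and 5.17 TPM with BMS, 59.6 and 68.3 TPM without it and 2.65 and 1.55 TPM in BLSE, and differed between the IWR1 conditions by −2.75 ± 0.45 (adjusted p = 7.73e-05). HOXA10 was at 7.50 and 5.97 TPM with BMS, above BLSE + IWR1 by 1.24 ± 0.24 (adjusted p = 6.73e-04) and far below the 85.0 and 101.9 TPM of BLSE. APLNR was at 281 and 155 TPM with BMS, 3.17 ± 0.34 above BLSE + IWR1, and FOXF1 at 43.6 and 75.8 TPM, 2.36 ± 0.32 above it. The BMS libraries were unequal for FGF8, at 21.7 and 2.33 TPM, and for NODAL, at 136 and 29.0 TPM.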

How the data were processed

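Poly(A) RNA of cells sorted in fixed number was made into directional libraries and read from 1 end. The authors aligned reads to the marmoset genome with STAR, filtered alignments by mapping quality, estimated abundance with RSEM and deposited TPM with 2 decimals for 14812 genes of a marmoset-human common list. TPM of these genes summed to 790300 to 839203 per library, and 10146 to 12688 genes per library were above 0. Depth is unknown. RSEM divides reads between near copies, so genes with pseudogenes, such as POU5F1, are less certain. Some genes that the rule for named genes takes in are not reported here. Chromosome positions and promoter or protein sequences were not used here.

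The deposited values were taken to log2(TPM + 1), and the 11197 genes that reached 1.5 in any library were tested. The means of 27 conditions were fitted over 54 libraries in limma 3.58.1 (R 4.3.3), leaving 27 residual degrees of freedom, with the variance prior following mean level, and two-sided p of each contrast were adjusted over the 11197 genes by Benjamini-Hochberg. The authors used edgeR, which needs counts, so limma took its place. DEGs differed more than 4-fold at an adjusted p under 0.01, with a mean log2 of the groups above 1.5. The study states that conditions were run in biological duplicate, and the smallest p of an exact permutation of 2 libraries against 2 is 0.33, so the p-values rest on the spread pooled over conditions. No pair of libraries was identical. The scripts were tested on simulated data.

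Described were the 4 marker genes, genes the study names, and the 10 largest differences in each direction among DEGs with a gene symbol. For 23 lists, up to 6 DEGs by size and members whose role the text needs were described as well. Members and lists were chosen with earlier results of these data known, so no list was given a test, and the counts stand beside the share of all genes called. Alternatives were a pseudocount of 0.1, no filter, median-ratio and quantile scaling, no trend, a replicate block, fits of fewer libraries, a 2-fold threshold and leaving out each library. List counts without each library were added after seeing the data.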

Additional observations from a re-analysis of the deposited data

Results flagged for a closer look

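Differences that changed between stages were looked at again, each by a test of the difference itself in limma. The 48 h difference between BLSE + IWR1 and BLSE was unlike that between the starting cjESCs in 422 genes, with 135 shifted upward and 287 downward. Among named genes the shift, the 48 h difference minus the cjESC difference, was 4.79 for FOXJ1, 4.93 for FGF8, 3.28 for NANOG, 3.44 for SOX2, 2.99 for ZIC2, 5.38 for NODAL, 3.56 for FZD5, 2.99 for UTF1 and 7.49 for WNT8A on the log2 scale. The shift of HAND1 (2.7) and GATA3 (2.27) lay mainly between the cjESCs: both were lower in PESFA than in DK20FA cjESCs and were not DEGs at 48 h. The shift of ZIC2 lost the call when any of 7 of the 8 libraries was left out (adjusted p of 0.0143 to 0.0415), and that of GATA3 without DK20FA library 2 (1.81). On the lower side stood HOXA10 (−4.66), HOXA11 (−5.39), HOXB6 (−3.94), VIM (−3.84), TBX2 (−3.54), A2M (−5.12), IL17RE (−2.33) and PITX1 (−5.61). IL17RE lost the call without BLSE 48 h library 1 (adjusted p = 0.0102), PESFA library 2 (−1.86) or DK20FA library 1 (−1.51).

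From 12 to 48 h the difference changed in 38 genes, among them FOXJ1 (2.95), FGF8 (3.08), NANOG (2.02), NODAL (3.52), FZD5 (2.08), UTF1 (2.38) and WNT8A (3.93) upward and PLA2G2A (−4.50) and A2M (−2.92) downward. PLA2G2A was listed at 0 in both BLSE + IWR1 libraries at 48 h, so its value depends on the pseudocount. It lost the call without BLSE 12 h library 2 (−5.40), where its mean level was too low. FOXJ1 and FGF8 lost the call without any 1 of the 8 libraries. FZD5 lost it without any of 7 of the 8 (1.51 to 2.32, adjusted p of 0.0101 to 0.0627), and NANOG without any of 4, below 4-fold (1.79 to 1.91). The shift of VIM and IL17RE uses cjESC libraries whose stroma list summed to 4766 and 3309 TPM in PESFA and 492 and 613 TPM in DK20FA, and a part of that RNA in these values was not tested.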

How the results depend on the processing

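The 267 DEGs at 48 h were 292 with a pseudocount of 0.1, 266 without a filter, 268 after median-ratio scaling, 260 after quantile normalization, 266 without a trend and 261 in a fit of 12 unsorted libraries. A 2-fold threshold gave 1127 (574 higher, 553 lower). A fit of the 4 libraries compared gave 0 DEGs, with 268 genes meeting the fold and level thresholds where p before adjustment was under 0.05. Fits of the 8 libraries each needs gave 179 genes in place of 422 for the shift from cjESCs and 1 in place of 38 for the change from 12 h. Leaving out each library gave 235 to 349 DEGs at 48 h, 381 to 468 for the shift from cjESCs, and 25 to 45 for the change from 12 h. Of single genes, KIT, near 0 TPM throughout, was at 0.05 without BLSE library 1 and at −0.27 without library 2, against −0.11. PRDM14 was below 4-fold after median-ratio (1.99) and quantile scaling (1.94). With a pseudocount of 0.1 PLA2G2A (−8.17) and HOXC11 (−7.56), at 0 in BLSE + IWR1, stayed under the p threshold and fell below the level threshold alone. For the shift, TBX2 (−6.13) and PITX1 (−8.43) did the same, while ZIC2 (adjusted p = 0.0137) and IL17RE (0.0102) lost the call on p. The shift of ZIC2 was also no DEG in limma without a filter (adjusted p = 0.0162), after median-ratio scaling (0.011) and without a trend (0.0143). The change of FOXJ1, FGF8 and FZD5 from 12 h was no DEG without a filter or without a trend, at adjusted p of 0.0126 to 0.0177, nor that of FGF8 after quantile normalization (0.011). With a pseudocount of 0.1 it was no DEG for FOXJ1 (adjusted p = 0.141), FGF8 (0.0579), WNT8A (0.0843) and PLA2G2A (−8.20, mean level too low).

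Replicate numbers in the labels are shared, but same-numbered libraries did not deviate together at 48 h (r = 0.070 across genes), so the numbers were not taken as pairs. With the replicate block there were 268 DEGs over 54 libraries, 420 for the shift from cjESCs and 39 for the change from 12 h. With the block in the 4 libraries alone there were 0, and 268 at an unadjusted p under 0.05.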

Other observations

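Some receptors for the factors in the medium differed between the conditions at 48 h. These genes were chosen after their values were seen. LIFR, the receptor of LIF, had 2.71 and 7.61 TPM in BLSE + IWR1 against 43.7 and 50.1 TPM in BLSE, a log2 difference of −3.08 (adjusted p = 2.05e-11 in limma). EGFR, the receptor of EGF, had 4.62 and 7.78 against 51.6 and 70.2 TPM, with −3.12. Both were DEGs. The BMP receptor BMPR1A had 49.5 and 71.5 against 66.7 and 65.6 TPM, with −0.15 (adjusted p = 0.587), and BMPR2 had 28.7 and 52.5 against 103 and 113 TPM, with −1.45 (adjusted p = 1.38e-05), below 4-fold.

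Genes of Notch signalling, chosen in the same way, were split. JAG1, a ligand, had 3.26 and 8.09 TPM in BLSE + IWR1 against 40.8 and 52.2 TPM in BLSE, with −2.92, and HEY2, a target, differed by −2.57. NRARP, a feedback target, had 17.5 and 25.6 against 3.19 and 1.61 TPM, with 2.75. GLI1, a target of Hedgehog signalling, had 4.19 and 6.79 against 0.75 and 0.23 TPM, with 2.12.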
